A study of Mus musculus with 6 samples.

Results

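A set of 9 genes of brain and olfactory bulb neurons was followed through arrays of mouse olfactory epithelium, the lining of the nose where odours are detected. The members, namely Eomes, Rbfox3, Camk2a, Meg3, Miat, Tbr1, Gad1, Th and Snhg11, were selected on these same arrays, by their signal on the array labelled heterozygous 3 against the other 5 and by the difference between the groups. Every probe set whose platform annotation names 1 of these 9 genes alone was taken, which gave 30 of the 45037 probe sets that are not controls. The annotation names 18193 genes in this way. The study compared 3 RNA samples from mice homozygous for the OMP-GFP allele with 3 from heterozygous mice, each hybridised to an Affymetrix mouse 430 2.0 array. As background, this allele puts green fluorescent protein in the place of the Omp coding sequence, so that mature olfactory neurons of homozygous mice lack olfactory marker protein and those of heterozygous mice keep 1 intact copy. All 6 samples carry GFP and no wild type was compared. Strain, age and sex are not given in the labels, nor whether RNA of several animals was pooled, so the spread between arrays may be partly technical.

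The genes are best known from neurons of the brain and of the olfactory bulb, which lie behind the epithelium. Axons of olfactory sensory neurons cross the bone to the olfactory bulb, where they contact mitral and tufted cells, which use glutamate and express the T-box factors Eomes and Tbr1, and periglomerular cells, many of which make GABA through Gad1 or dopamine through Th. Rbfox3 encodes the splicing factor detected by the NeuN antibody, Camk2a a calcium-dependent kinase of forebrain excitatory synapses, and Meg3, Miat and Snhg11 are long non-coding RNAs abundant in brain. Several of them have other sources: Th is made in sympathetic nerves, Eomes in natural killer cells, and Meg3 and Miat in tissues outside the brain.

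The annotated start regions are shown for 4 of the 9 members. Meg3, Snhg11 and Rbfox3 stood high on heterozygous 3, and Th, which was dim and not tested, did not. Each window is from RefSeq on build GRCm38.p6, runs 5′ to 3′ along the gene's strand and ends 50 bases inside the transcript. Capitals mark the palindrome TGACGTCA, the full cAMP response element, which is bound by factors of the CREB family.
Meg3, chr12:109540746-109541045, plus strand: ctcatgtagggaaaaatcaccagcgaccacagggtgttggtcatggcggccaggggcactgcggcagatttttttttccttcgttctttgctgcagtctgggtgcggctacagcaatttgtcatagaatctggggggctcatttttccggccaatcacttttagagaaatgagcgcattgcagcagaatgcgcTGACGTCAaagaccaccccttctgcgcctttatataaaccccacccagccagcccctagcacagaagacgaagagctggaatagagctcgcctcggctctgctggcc
Snhg11, chr2:158375463-158375762, plus strand: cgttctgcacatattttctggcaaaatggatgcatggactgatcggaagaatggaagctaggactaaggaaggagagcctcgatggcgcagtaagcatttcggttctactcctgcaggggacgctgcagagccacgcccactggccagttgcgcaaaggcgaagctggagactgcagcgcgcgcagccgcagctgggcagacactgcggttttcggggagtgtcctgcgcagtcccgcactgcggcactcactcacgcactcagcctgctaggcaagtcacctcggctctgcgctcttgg
Rbfox3, chr11:118760992-118761291, minus strand: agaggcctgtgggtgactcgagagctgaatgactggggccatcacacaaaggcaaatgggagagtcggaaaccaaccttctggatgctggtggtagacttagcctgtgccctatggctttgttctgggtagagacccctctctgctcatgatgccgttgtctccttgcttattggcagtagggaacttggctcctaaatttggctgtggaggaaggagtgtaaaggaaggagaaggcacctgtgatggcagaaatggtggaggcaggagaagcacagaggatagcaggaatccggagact
Th, chr7:142899946-142900245, minus strand: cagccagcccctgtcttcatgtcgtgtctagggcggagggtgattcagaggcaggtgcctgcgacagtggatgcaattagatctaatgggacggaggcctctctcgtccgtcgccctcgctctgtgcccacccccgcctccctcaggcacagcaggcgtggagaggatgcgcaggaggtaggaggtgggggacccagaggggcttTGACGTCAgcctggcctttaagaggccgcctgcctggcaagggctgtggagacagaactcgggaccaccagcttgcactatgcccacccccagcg
Of the 9 windows held for these genes, 2 contained TGACGTCA, 1 of Meg3 and that of Th, beside 1.79% of all 32851 windows of this length. Its first base lay at -57 relative to the annotated start in Meg3 and at -45 in Th. Whether the element bears on the signals was not tested, and Th was too dim for its pattern to be compared with that of Meg3. TATAAA, on either strand, was found in 2 of the 9 windows, those of Gad1 and Meg3, beside 13.6% of all windows. CCAAT, on either strand, was found in 4, those of Eomes, Meg3, Rbfox3 and Tbr1, beside 37.4% of all. None of the 3 motifs contains another. These matches describe letters and are not evidence of binding.

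Facts of the arrays that touch the results come first. The deposited values are MAS5 signals, a linear brightness per probe set, and their median per array lay between 147.9 and 163.7. The 3-prime to 5-prime ratio of the beta-actin control, a sign of RNA integrity, was 1.32 on heterozygous 3 and 1.28 to 1.32 on the other 5 arrays, and that of Gapdh was 0.706 against 0.705 to 0.755. Among 22514 probe sets tested, 20 read at least 2-fold higher on heterozygous 3 than on every other array, and each of the other 5 arrays stood above all the rest in this way at 0 to 9 probe sets. At Omp, probe set 1422199_at read 5.7, 8.8 and 31.3 in homozygous 1, 2 and 3, against 26.3 in the library labelled heterozygous 1, then 4664 and 9143 in heterozygous 2 and 3. The other Omp probe set, 1422200_at, read 7918.5 to 8774 on all 6 arrays. At 1422199_at the library labelled heterozygous 1 thus lay among the homozygous arrays, against its label, while the other labels went with the signal. Their positions with respect to the replaced coding sequence are not known here. The name heterozygous 1 is used below for the library that bears this label. It also had the highest signal of the myelin gene Mbp, 7268.5, against 655 to 1038 on the other arrays. A probe set was tested where its mean log2 signal reached the median of all probe sets, log2 values being taken after an offset of 38.8 was added. This was met by 16 of the 30 members, covering 6 of the 9 genes, and by 10 of those 16 on the other 5 arrays without heterozygous 3. The other 6 passed only through heterozygous 3, where they had to be high. The 14 not tested read between 3.4 and 474.3, with a median of 52.3, and include every probe set of Tbr1, Gad1 and Th.

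Rbfox3, Camk2a, Meg3 and Snhg11 were highest on heterozygous 3, at 1.77 to 4.71 times the next array at their tested probe sets, while Eomes was lowest there and Miat was low on heterozygous 2 and 3. The tested probe sets of Rbfox3 and Snhg11, and 4 of the 9 of Meg3, reached the limit for testing only through heterozygous 3. At those of Camk2a and Meg3 that reach it on the other 5 arrays, the ratio was 1.77 to 2.17. Tbr1 and Gad1, below the signal limit for testing, were also highest on heterozygous 3, by smaller margins, and Th was not. The tested genes thus did not behave as 1 group. Of the members known from bulb neurons, only Eomes was tested, and Tbr1, Gad1 and Th were too dim for a shared or mixed pattern to be read. Since the members were chosen with this array's values known, the comparison of heterozygous 3 with the other 5 is given as values, with no test.

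Rbfox3 showed the widest gap to the next array among the genes other than Meg3. Its probe set 1436450_at read 184, 49.5 and 156 in homozygous 1, 2 and 3, against 112, 119 and 791 in the libraries labelled heterozygous 1, 2 and 3. Heterozygous 3 was 4.29 times the highest other array, and the 5 other arrays themselves spread from 49.5 to 184. This probe set reached the limit for testing only through heterozygous 3. The other probe sets of the gene were dimmer and not tested. At 1456149_at heterozygous 3 read 148, against 63.0 to 135 on the other arrays, and at 1427286_at it read 47.9, against 4.2 to 27.3. Heterozygous 3 was the highest array at 3 of 3 probe sets, by small margins at these last ones, and at 1427286_at all homozygous arrays lay below all heterozygous ones.

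Camk2a, the alpha subunit of the calcium- and calmodulin-dependent kinase of synapses, gave a like result at 1 of its 6 probe sets. The tested one, 1457311_at, read 217, 186.5 and 169 in homozygous arrays, against 185, 198 and 458 in the libraries labelled heterozygous 1, 2 and 3. The other 5 arrays lay close together and the groups overlapped. Heterozygous 3 was 2.11 times the highest other array, which after the offset is a log2 difference of 0.96, just short of 2-fold. Heterozygous 3 was highest at 3 of all 6, and at 1442707_at it read 111.6, against 60.0 to 82.8 on the others. At 1443876_at the homozygous arrays read 81.0, 89.4 and 85.5, against 55.0, 67.1 and 58.0 in the libraries labelled heterozygous 1, 2 and 3, so that all homozygous arrays were above all heterozygous ones at this probe set, whereas at 1442707_at they were all below. With the mean of all 6 probe sets, heterozygous 3 was above the highest other array by a log2 difference of 0.16. The annotation assigns all 6 probe sets to Camk2a, and which exons they lie in is not known here.

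Meg3, a maternally expressed imprinted non-coding RNA of the Dlk1 region, has 11 probe sets, of which 9 were tested, and heterozygous 3 was highest at 10 of the 11. The brightest, 1439380_x_at, read 997, 1105 and 885 in homozygous 1, 2 and 3, against 753.5, 825 and 1961 in the libraries labelled heterozygous 1, 2 and 3. Heterozygous 3 stood above all other arrays, and the homozygous arrays stood above the other heterozygous ones. The largest gap was at 1452906_at, which read 188, 92.1 and 108 in homozygous arrays, against 46.7, 196 and 924 in the libraries labelled heterozygous 1, 2 and 3. At the 5 probe sets that reach the limit for testing without heterozygous 3, its ratio to the highest other array ran between 1.77 and 2.17, and at the 4 that reach it only through heterozygous 3, between 2.39 and 4.71. The exception was 1436057_at, not tested, where heterozygous 3 read 182 and homozygous 1 read 184. Probe sets whose names end in _s_at, _a_at or _x_at can match several transcripts, and 4 of the 11 are of these kinds. The 11 probe sets measure 1 gene and are not independent.

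**Figure D1:**
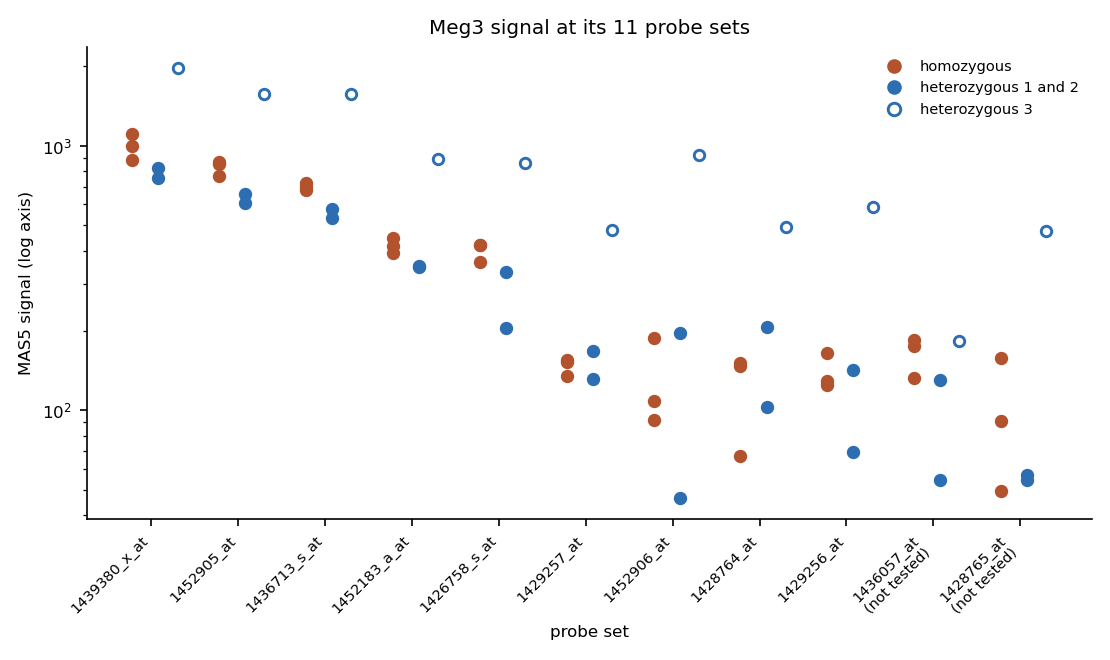
MAS5 signal of Meg3 on a log axis at each of its 11 probe sets, with homozygous arrays left of heterozygous ones and heterozygous 3 as an open circle. Heterozygous 3 is the highest point at 10 of 11 probe sets, and the homozygous arrays lie above the library labelled heterozygous 1 and above heterozygous 2 at 6, beside 14.5% of all probe sets.

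Apart from heterozygous 3, Meg3 read higher in homozygous arrays than in the library labelled heterozygous 1 and heterozygous 2 at 6 of 11 probe sets, with no overlap, a condition met by 14.5% of all probe sets. At 1436713_s_at the homozygous arrays read 725, 681 and 701, against 533 and 575 in those libraries and 1572 in heterozygous 3. At 1452905_at they read 766, 871 and 850.4, against 607 and 655, with 1567 in heterozygous 3. The library labelled heterozygous 1 was the lowest array at 7 of 11 probe sets.

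Snhg11, a host transcript of small nucleolar RNAs that is rich in neurons, read 163, 130.1 and 153 in homozygous arrays at 1434292_at, against 122, 154 and 500.1 in the libraries labelled heterozygous 1, 2 and 3. Heterozygous 3 was 3.07 times the highest other array, and the other 5 arrays lay between 122 and 163. This probe set reached the limit for testing only through heterozygous 3. At its dim probe set 1437311_at, not tested, heterozygous 3 read 42.3 and the other arrays 4.7 to 14.8.

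Miat, also called Gomafu, is a nuclear non-coding RNA of neurons. At 1455325_at it read 2331, 2430.4 and 2245 in homozygous arrays, against 2357, 1481 and 1612 in the libraries labelled heterozygous 1, 2 and 3. Heterozygous 2 and 3 were low and the library labelled heterozygous 1 lay among the homozygous arrays, so the groups overlapped. The other probe set, 1458903_at, was also low on those arrays, with 314.5, 274 and 272 in homozygous arrays, against 292, 163 and 158.5 in the libraries labelled heterozygous 1, 2 and 3. Heterozygous 3 was the lowest array there and the next to lowest at the bright probe set.

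Eomes is a T-box transcription factor gene. At 1435172_at it read 453, 459 and 510 in homozygous 1, 2 and 3, against 382, 310.5 and 205 in the libraries labelled heterozygous 1, 2 and 3. All homozygous arrays were above all heterozygous ones. At 1426001_at it read 228, 234 and 273 in homozygous arrays, against 268, 281 and 141.5 in the libraries labelled heterozygous 1, 2 and 3. Heterozygous 3 was lowest at both probe sets, at 0.402 and 0.504 times the highest other array, and at 1426001_at the other 5 arrays did not separate by group. Tbr1, its relative in the same family, read 24.8, 28.8 and 22.9 in homozygous arrays, against 42.0, 25.3 and 49.5 in the libraries labelled heterozygous 1, 2 and 3. These values are near the 25th percentile of all signals, 38.8, so no level of Tbr1 is claimed.

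The transmitter enzymes did not reach the limit for testing. Gad1, which makes GABA from glutamate, read 96.8, 54.8 and 28.6 in homozygous arrays at 1416561_at, against 35, 146 and 198 in the libraries labelled heterozygous 1, 2 and 3. Heterozygous 3 was highest, at 1.35 times heterozygous 2 and 3.62 times the median of the other 5 arrays, with groups overlapping. At 1416562_at the same array was highest with 76.9, and homozygous 1 followed with 64.2. Th, the rate-limiting enzyme of dopamine synthesis, read 84.4, 50 and 24.2 in homozygous arrays, against 47.3, 51.9 and 48.2 in heterozygous arrays. Heterozygous 3 was in the middle of the others for Th.

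**Figure D2:**
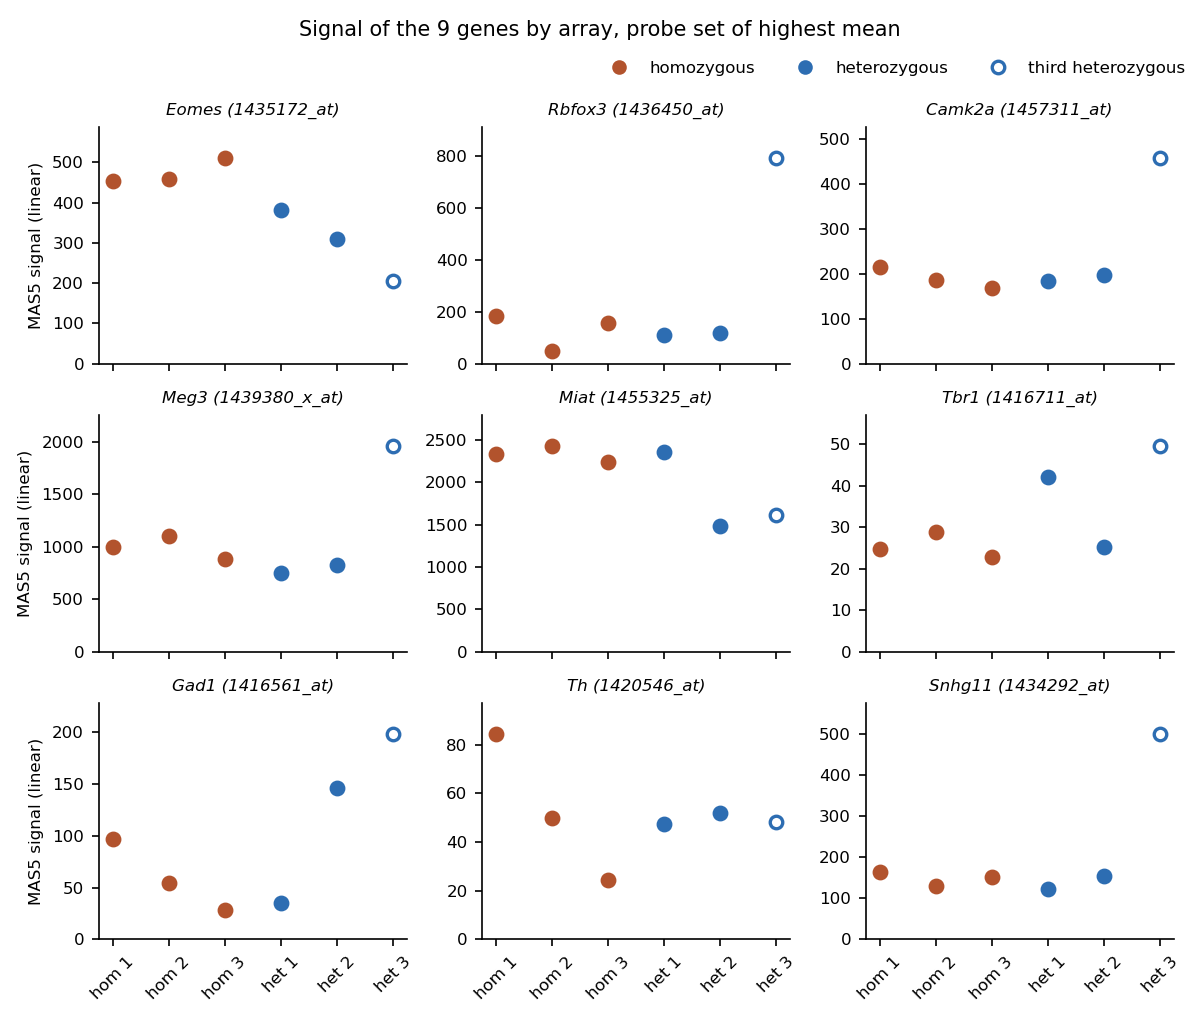
MAS5 signal of each of the 9 genes on a linear axis from 0, by array, at the probe set of highest mean, with heterozygous 3 as an open circle. Rbfox3, Camk2a, Meg3 and Snhg11 are highest on heterozygous 3, Eomes is lowest there, and Th is not separated.

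Over all members, heterozygous 3 was the highest array at 21 of 30 probe sets and the lowest at 3, beside 20.8% and 19.1% of all probe sets. After the offset it was at least 2-fold above every other array at 8 of the 30, beside 0.231% of all probe sets. Among tested members it was 7 of 16, beside 0.0888% of all tested probe sets, but 6 of the 7 passed the filter only through heterozygous 3. Of the 10 that pass on the other 5 arrays alone, 1 was past 2-fold, Meg3 1436713_s_at, beside 0.0537% of all such probe sets. The 8 of the 30 were 6 of Meg3 and the brightest ones of Rbfox3 and Snhg11. Since the members were taken for this pattern, the share is a description. The nearest probe sets on either side of that limit were Meg3 1436713_s_at, with a log2 difference of 1.08 over the highest other array, and Camk2a 1457311_at, with 0.96. No member was at least 2-fold below every other array, beside 0.00888% of all tested probe sets.

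**Figure D3:**
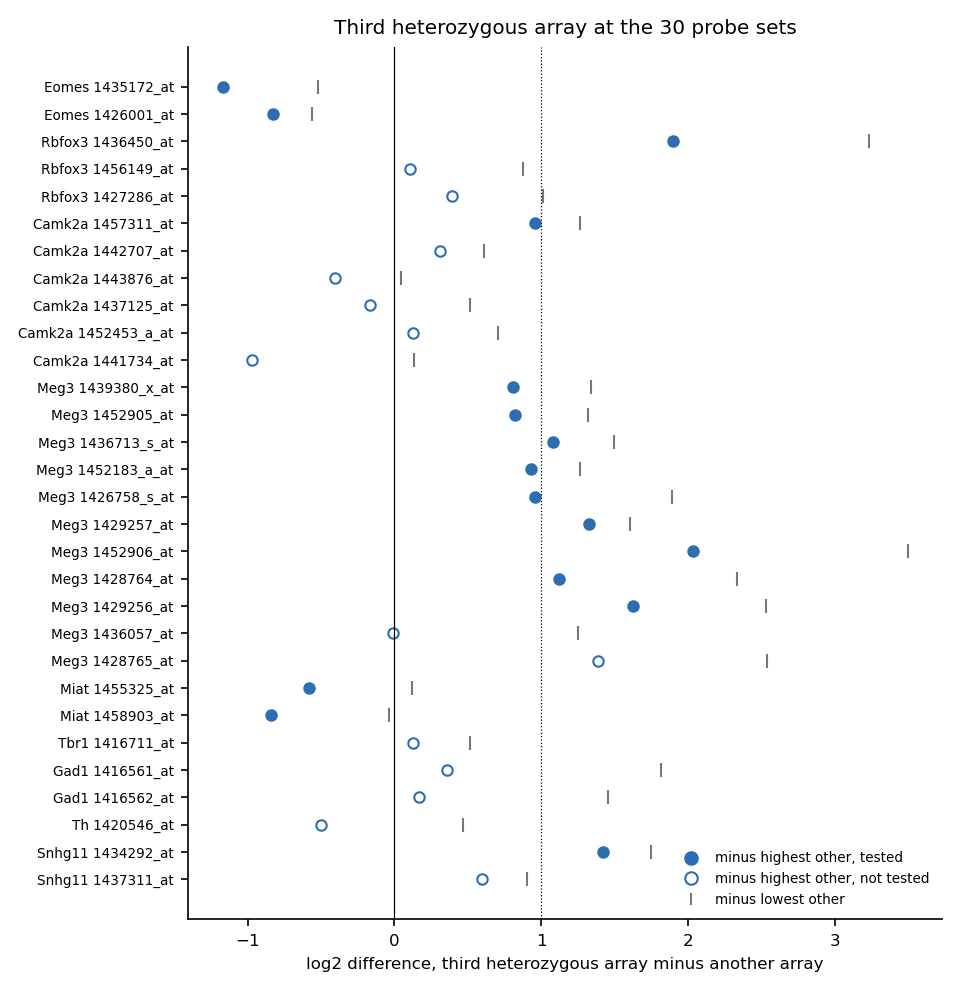
Log2 difference of heterozygous 3 from the highest (circles) and the lowest (ticks) of the other 5 arrays at the 30 probe sets, open circles being those not tested and the dotted line marking 2-fold. Points right of 0 are probe sets where heterozygous 3 was the highest array, 21 of 30, and both Eomes probe sets lie left of 0 with their ticks.

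Other genes of these neuron types were taken from lists, with the probe set of highest mean for each gene and the members left out. Of 30 forebrain neuron genes measured, 6 were at least 2-fold above every other array on heterozygous 3, beside 0.264% of all 18193 genes, and 21 were highest there, beside 19.3% of all genes. Their median difference from the median of the other arrays was 0.40 on the log2 scale, beside -0.01 over all genes. Of the 30 genes, 18 reached the limit for testing. Among the 6 past 2-fold, Cplx1 and Nefl reached it, and Rbfox1, Nrgn, Neurod6 and Nefm did not. Neurod6, a transcription factor of cortical excitatory neurons, read 217 on heterozygous 3, against 19.3 to 45.5 on the other 5 arrays. Nefm, a neurofilament subunit, read 271 against 23.3 to 58.2, and Nrgn, a calmodulin-binding protein of forebrain synapses, read 438 against 69.7 to 107.7. Rbfox1, the relative of Rbfox3, read 322 against 20.5 to 80.7. The list's only gene lowest on heterozygous 3 was Nefh, another neurofilament subunit, with 55.0 against 77.7 to 97.3. The genes of highest signal in the list are also expressed by olfactory neurons: Snap25 read 4912 against 3870 to 4359 and Ppp3ca 3558 against 3190.1 to 3545.

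Genes of bulb projection neurons were counted in the same way. Of 16 measured, 0 were at least 2-fold above every other array on heterozygous 3, beside 0.264% of all genes. On that array 7 were highest, beside 19.3% of all genes, with a median difference of 0.12. Heterozygous 3 was lowest for 2, Cdhr1 and Doc2g, beside 23% of all genes. Doc2g, which was not tested, read 71.1 against 111 to 172. Only 7 of the 16 reached the limit for testing, and 4 lay below the 25th percentile of all signals on every array. Cdhr1, a cadherin of mitral cells and of other cells, read 2041.5 on heterozygous 3, against 2049 to 2473 on the others. Tbx21, a T-box factor of mitral and tufted cells, read 11.6 against 1.4 to 6.1. These Tbx21 values are below the 25th percentile of all signals on every array, so no level of it is claimed. Neurod2, which cortical neurons also express, read 264 against 78.5 to 143. Among 21 inhibitory neuron genes of bulb and forebrain, 1 was past 2-fold, the peptide gene Sst, which read 180 on heterozygous 3, against 20.2 to 62.7 on the others. Pcp4, a small calmodulin-binding protein, read 233 on heterozygous 3, against 82.7 to 154. Of the 21 genes, 9 were highest on heterozygous 3 and 2 lowest, beside 19.3% and 23% of all genes. The lowest were Dlx6os1, with 290 against 301 to 387, and Dlx6, with 160 against 162 to 287. Dlx5 and Tshz1, the brightest of the list, read 1310 against 1169 to 1420 and 7035.5 against 5410 to 6423. Neurod2, Sst and Pcp4 did not reach the limit for testing. Of 7 genes of dopamine synthesis and transport 0 were past 2-fold, and the vesicle transporter gene Slc18a2 read 135 against 99.2 to 119.5. Whether forebrain and bulb lists differ from each other was not tested.

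Non-coding RNAs and the neighbours of Meg3 were mixed. Of 9 neuronal non-coding RNAs measured, 1 was past 2-fold, Pantr1, which read 369 on heterozygous 3, against 37.8 to 83.2 on the other arrays. Pantr1 did not reach the limit for testing. The nuclear RNAs Malat1 and Neat1 read 3509 and 5803 on heterozygous 3, against 2578 to 4436 and 4480.5 to 5774. Rian and Mirg, imprinted RNAs of the same cluster as Meg3, read 110.7 and 99.3, against 66.4 to 100.3 and 50.8 to 102.3, and Dlk1, the cluster's paternally expressed gene, 78.9 against 53.9 to 117. None of these 3 was tested, their signals being dim.

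Markers of other cell types were read on the same arrays. Mature olfactory neuron markers were lowest on heterozygous 3 for 8 of 11 genes, beside 23% of all genes, and their summed signal there was 80676, against 91515 to 102131 on the other 5 arrays. Stoml3, a protein of olfactory cilia, read 15125 against 17970 to 20031. The summed signal of astrocyte and olfactory ensheathing glia markers was 28487 against 25994 to 28172, with 0 of 11 past 2-fold, and the astrocyte glutamate transporter Slc1a2 read 629 against 239 to 316. Gfap, the astrocyte filament, read 142.5 against 59.2 to 79.6 and was not tested. Of these 11 genes, 6 were highest on heterozygous 3 and 1, Aldoc, was lowest, beside 19.3% and 23% of all genes. The brightest of the list, Fabp7 and Gja1, read 6697 against 6290 to 7219 and 10295 against 8105 to 9625. For myelinating glia the sum was 11652 against 10537 to 24647, the highest being the library labelled heterozygous 1. Peripheral sensory and autonomic neuron markers summed to 2666, against 3220 to 3397. The largest part of that sum was the filament gene Prph of peripheral neurons, which read 1348 against 1833 to 2281. Of the 9 genes measured, Prph was the 1 lowest on heterozygous 3, and 2 were highest there. The list's median log2 difference from the median of the other arrays was -0.009, so the lower sum does not describe the list. Natural killer and T lymphocyte markers summed to 445, against 314.5 to 562, and 3 of 11 lay below the 25th percentile of all signals on every array. Immature olfactory neuron markers summed to 49839 against 46830 to 51858 and sustentacular and gland markers to 120673 against 119211 to 127088. Since each sample is a piece of tissue, more cells of a type and more RNA per cell cannot be told apart. The part of tissue makeup in the member values was not tested.

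**Figure D4:**
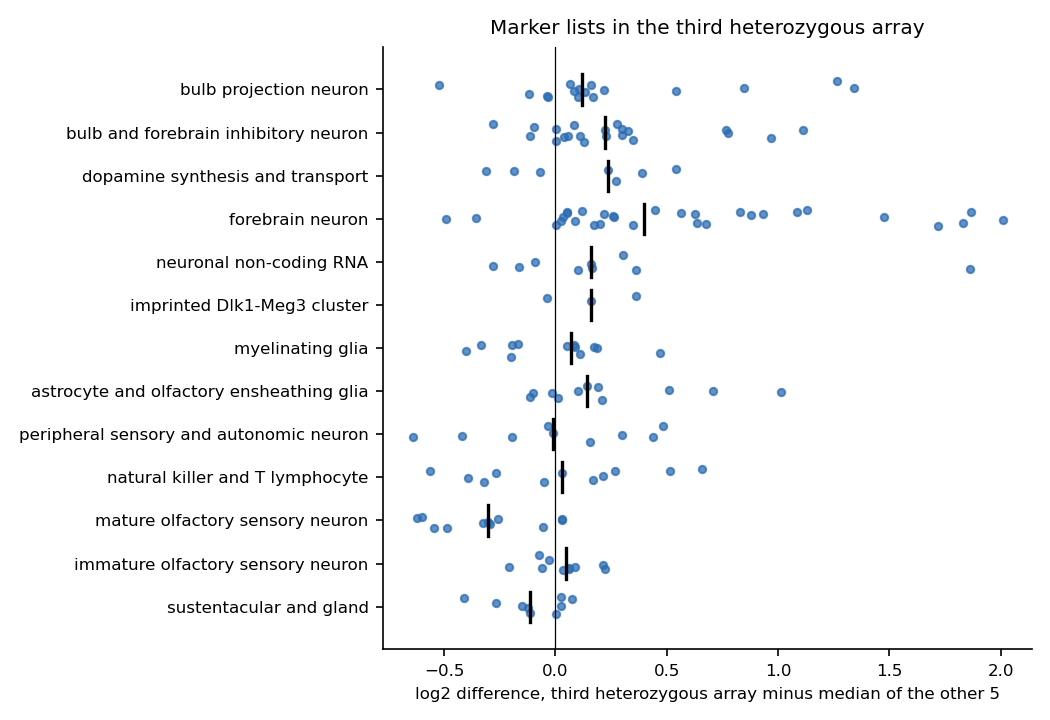
Log2 difference of heterozygous 3 from the median of the other 5 arrays for each gene of 13 lists (points), with the median of each list as a bar. The forebrain neuron list has a median of 0.40 and reaches furthest right, and the mature olfactory neuron list has a median of -0.31.

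Among all other tested genes, those with the largest ratio of heterozygous 3 to the next array were Fgf13, Chl1, Cplx1, Plppr4, Adcy1, Nefl, Klhl42, Prkcb, Cxcl14 and Prkar1b, in that order on the offset log2 scale. The limit for testing takes in heterozygous 3. Plppr4, at 96.0 to 170 on the other arrays, and Cxcl14, at 100.3 to 161, reached it only through heterozygous 3. Fgf13, a modulator of neuronal sodium channels, read 742.5 on heterozygous 3, against 153 to 221 on the others, and Chl1, a neural adhesion molecule, 608 against 145 to 195. Cplx1, which controls vesicle fusion, read 738 against 140.0 to 308, and the neurofilament gene Nefl 1026 against 362 to 477. Adcy1, a calcium-stimulated adenylyl cyclase of brain, read 668 against 210.3 to 292. The 5 genes lowest on heterozygous 3 by this measure were Dcpp1, Fcgbp, Lbh, Glo1 and Mfap5. Dcpp1, a secretory gland protein, read 72.9 on heterozygous 3, against 218 to 341, and Glo1, the methylglyoxal-detoxifying enzyme, 3048 against 5267.5 to 6509.

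The genes closest to the mean centred log2 profile of the 6 tested members, by Pearson's r over the 6 arrays, were Mbtps2, Prkar2b, Napb, Atf2 and Lrch1, with r from 0.984 to 0.990. Without heterozygous 3 their r over 5 arrays lay between 0.896 and 0.975. Their changes were small: Mbtps2 read 782 on heterozygous 3, against 579 to 633 on the others, and Napb, a vesicle fusion factor of brain, 567 against 348 to 441. The profile itself is a mean of genes that ran in opposite directions, and r is a description, the genes having been ranked by it over all tested genes.

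Homozygous arrays were then compared with heterozygous arrays. Where heterozygous 3 is left out, the heterozygous group is heterozygous 2 and the library labelled heterozygous 1. At Omp 1422199_at that library lay among the homozygous arrays. Such differences thus rest on a label that the Omp signal does not bear out. On the log2 scale Eomes differed by 0.64 and Miat by 0.38, homozygous minus heterozygous, and Rbfox3, Gad1, Snhg11 and Camk2a by -0.79 to -0.38. No member passed the test with all 6 arrays. Of 22514 probe sets tested in limma with Benjamini-Hochberg adjustment, 0 passed an adjusted p of 0.05 (0% of all), as did 0 of the 16 tested members, whose adjusted p lay between 0.859 and 0.996. An unadjusted p under 0.05 was found for 1291 of them, or 5.73%, and for 3 members, namely Eomes 1435172_at and both probe sets of Miat. When the array labelled heterozygous 1 was left out, the count passing was 25 (0.111%), and 1 member was among these, Miat 1455325_at. Since this contrast was used in choosing the members, nothing is read from these counts.

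Eomes at 1435172_at averaged 474 ± 31.3 in the homozygous group and 299 ± 88.8 in the heterozygous group (n = 3 each, SD), and the log2 difference was 0.64 ± 0.17 (SE) with a limma adjusted p of 0.859. Without heterozygous 3 it was 0.42 and without the library labelled heterozygous 1 it was 0.81 (limma adjusted p 0.191). At 1426001_at the difference was 0.12 ± 0.20, and -0.14 without heterozygous 3, so the probe sets of Eomes disagree. Miat averaged 2335.5 ± 92.8 in the homozygous group and 1817 ± 473 in the heterozygous group at 1455325_at (n = 3 each, SD), and the log2 difference was 0.38 ± 0.14 (SE) with a limma adjusted p of 0.859. At 1458903_at it was 0.46 ± 0.19. Without the library labelled heterozygous 1 the Miat differences were 0.58 and 0.70, with limma adjusted p of 0.040 and 0.215, and without heterozygous 3 they were 0.31 and 0.33.

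Rbfox3 averaged 130 ± 71.0 in the homozygous group and 340.5 ± 390.2 in the heterozygous group at 1436450_at (n = 3 each, SD), and the log2 difference was -0.79 ± 0.57 (SE). Without heterozygous 3 it was 0.02. Snhg11 at 1434292_at differed by -0.45 ± 0.36, and by 0.09 without heterozygous 3. Camk2a at 1457311_at differed by -0.38 ± 0.26, and by -0.01 without it. The mean of all Camk2a probe sets turned the sign, to 0.09. At other probe sets the difference without heterozygous 3 was -0.41 for Rbfox3 1427286_at and -0.21, 0.32 and 0.46 for Camk2a 1442707_at, 1443876_at and 1437125_at. Without homozygous 2 that of Rbfox3 1436450_at was -0.37. Without the library labelled heterozygous 1 the difference at the probe sets of highest mean was -1.21 for Rbfox3, -0.79 for Snhg11 and -0.59 for Camk2a.

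Meg3 turned. At 1439380_x_at it averaged 996 ± 110.1 in the homozygous group and 1180.1 ± 678 in the heterozygous group (n = 3 each, SD), and the log2 difference was -0.11 ± 0.28 (SE). Without heterozygous 3 the difference was 0.32, and without the library labelled heterozygous 1 it was -0.35. Over its 9 tested probe sets the difference ran from -0.77 to 0.02 with all arrays, and from -0.26 to 0.55 without heterozygous 3. The untested genes Gad1 and Tbr1 differed by -0.64 and -0.26, by -0.30 and -0.16 without heterozygous 3, and by -1.14 and -0.23 without the library labelled heterozygous 1. Th differed by 0.01 with all arrays.

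**Figure D5:**
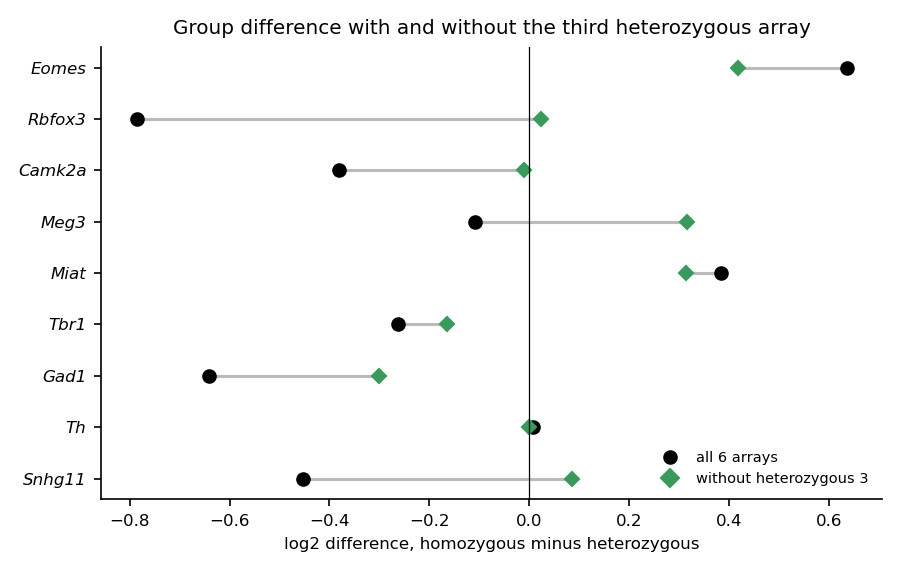
Log2 difference, homozygous minus heterozygous, of the 9 genes at the probe set of highest mean, with all 6 arrays (black circles) and without heterozygous 3 (green diamonds). Rbfox3, Camk2a and Snhg11 lie near 0 without that array, Meg3 changes sign, and Eomes and Miat stay above 0.

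Groups did not overlap at 1 of the 16 tested members with homozygous arrays higher, Eomes 1435172_at, beside 5.93% of all tested probe sets, and at 0 with homozygous arrays lower, beside 5.01%. Over all 30 the counts were 2 higher and 2 lower, beside 6.33% and 4.43% of all probe sets. The sign of the group difference turned without heterozygous 3 at 13 of 30 probe sets. In the forebrain neuron list, 26 of 30 genes had a lower mean in homozygous arrays, beside 8781 of 18193 genes. Of these 30 genes, 2 had an unadjusted p under 0.05 and 0 passed adjustment. The list's median difference was -0.21, and -0.04 without heterozygous 3. Bulb projection neuron genes had a median difference of -0.09, and of -0.04 without heterozygous 3, and mature olfactory neuron markers of 0.10 and -0.01.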

How the data were processed

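RNA of olfactory epithelium was measured on 6 arrays, 3 homozygous and 3 heterozygous by title. The authors deposited linear intensity values made with MAS5, according to the submitters' processing notes. Its version was not given in the sources used here, nor were settings. A trimmed mean of 500 was found for every array, so no further scaling was done. Detection calls were not used here.

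An offset of 38.8, the 25th percentile of the pooled signals, was added before the log2, which understates folds of dim probe sets. Controls (64) were left out, and probe sets with a mean log2 at or above the median were tested with limma 3.58.1 in R 4.3.3 (lmFit, eBayes with an intensity trend, Benjamini-Hochberg over 22514 probe sets, threshold 0.05). The fit had 4 residual degrees of freedom, and 3 arrays a group limit the precision. It was tested on simulated data. Heterozygous 3 was set against the highest of the other arrays with a fold of 2 and no test.

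The members, the 13 lists and the tests were chosen with earlier results of these data known. From each list the text could name the 2 genes of largest ratio of heterozygous 3 to the highest other array and the 2 of highest mean signal. Nrgn, Rbfox1, Nefh, Doc2g, Dlx6os1, Dlx6 and Aldoc were named after their values were seen. The 10 genes highest, the 5 lowest and the 5 most alike were named by rank. Deviations of same-numbered arrays were only weakly correlated, which cannot show whether the samples were paired. The labels do not say so, and the main fit used no pairing. The fit without the library labelled heterozygous 1 was also read for each member. Alternatives covered offset, scaling, filter, variance model, fold, replicate block and each array left out. Sequences are RefSeq's, with windows for 8 of the 9 genes.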

Additional observations from a re-analysis of the deposited data

How the results depend on the processing

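The count of probe sets called between homozygous and heterozygous arrays was 0 in limma (1291 at an unadjusted p under 0.05), and 1 with the pooled median as offset. Leaving out 1 array gave 0 to 25, with 25 without the library labelled heterozygous 1 and 1 without homozygous 3. The replicate number as a replicate block gave 0 (1106 unadjusted). The correlation of deviations of same-numbered arrays was 0.016, -0.12 and -0.05 for numbers 1, 2 and 3, and homozygous 1 correlated best with heterozygous 2. The count of tested probe sets at least 2-fold above all others on heterozygous 3, 20, was 9 with the pooled median as offset, 104 with no filter, 2 with the 75th percentile as filter, 110 at 1.5-fold, 4 at 3-fold, 79 over the median of the others and 40 over the other heterozygous arrays only. Without 1 of the other arrays, chosen after seeing the data, it was 20 to 44, with 44 without heterozygous 2. The member count, 7, was 4, 8, 1, 12, 3, 11 and 12 under the same settings in that order, and 7 to 8 without 1 array. These shifts follow from the changed offset, limit, filter or comparison. For a fixed set of probe sets, leaving out 1 of the other arrays cannot lower such a count. The counts without 1 array therefore do not measure stability. Of 153 recomputed values of the 9 genes, 142 moved by less than 1 SD and 11 by more, and 11 changed sign, of which 6 were by leaving out 1 array. The 142 include values that could not move. The replicate block leaves every difference as it was, and Tbr1 and Th have 1 probe set each to average. Also among the 142 are the differences without heterozygous 3 of Meg3, from -0.11 to 0.32, and of Rbfox3, from -0.79 to 0.02. Among the 11 is the log2 difference of heterozygous 3 from the highest other array for Camk2a, 0.96, which became 1.08 with no offset. A larger shift can thus count as less than 1 SD, so the 142 do not measure stability. Th changed sign in 6 settings. At their probe sets of highest mean, or the mean of their probe sets, Eomes and Miat had positive differences, homozygous minus heterozygous, in the settings tried, from 0.38 to 0.81 and from 0.25 to 0.58, while Eomes 1426001_at turned to -0.14 without heterozygous 3. Camk2a turned to 0.09 with the mean of its probe sets. The forebrain list had 6 genes past 2-fold with or without the library labelled heterozygous 1, a count that leaving it out could not lower.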
